A study of Homo sapiens with 7 samples.

Results

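The MYC, MAX and MXD network was examined in human embryonic stem cells (hESCs) in which the histone demethylase JMJD3c was switched on with doxycycline (Dox). Its 10 genes were MYC, MYCN, MAX, MXD1, MXD3, MXD4, MXI1, MNT, MGA and MLX, chosen by symbol among the 22670 gene entries listed for each library. Every symbol had 1 entry, and all 70 values (10 genes in 7 libraries) were marked as usable by Cufflinks, the program that estimated them.

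All libraries came from SEES-3, an established hESC line, kept without feeder cells in StemFit AK-03 medium on plates coated with iMatrix-511. The cells, which steadily expressed the rtTA activator that Dox switches on, carried a piggyBac vector, which inserts into the genome by transposition, for HA-tagged JMJD3c with a nuclear localization signal, driven by a Dox-responsive promoter and followed by IRES-βgeo. The JMJD3c-hESCs gave a library before Dox (Day 0) and one on each of Days 1, 2, 3 and 4 after Dox (1 µg/ml) was added. A line with a catalytically inactive JMJD3c under the same control, the JMJD3c mut-hESCs, gave an untreated library and one at Day 4, so the untreated cells of both lines also held rtTA and the vector. Both were stable lines selected after transfection, and line and starting state cannot be told apart. Each of the 7 conditions had 1 poly(A) RNA library, so replicate error is unknown and no p-values are given.

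MYC and MYCN are basic helix-loop-helix leucine zipper proteins that bind E-box DNA as heterodimers with MAX and activate genes for ribosome production, nucleotide synthesis and glycolysis. The MXD proteins (MXD1, MXD3, MXD4 and MXI1) and MNT also pair with MAX, bind the same E-boxes and recruit SIN3 and histone deacetylases, which repress. MGA joins MAX to a Polycomb complex that silences germline genes, and MLX is a MAX-like protein that pairs with the glucose-responsive factors MLXIP and MLXIPL. MYC and MYCN help to maintain the growth and self-renewal of pluripotent cells.

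The values are FPKM, fragments scaled to transcript length and to the mapped fragments of the library, each with the lower and upper bounds of its 95% interval. The interval describes the estimate within 1 library and not the variation between cultures. Calls followed 2 cutoffs: an upregulated gene exceeded 4 FPKM after treatment and had more than 2 times its untreated level, and a downregulated gene exceeded 4 FPKM before treatment and had less than 0.5 of that level. Genes above 4 FPKM in either library of a comparison are the tested genes, and 2 intervals are apart when they do not overlap.

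The libraries held an estimated 3540000 to 7300000 reads, Day 0 being the shallowest. KDM6B, the gene that encodes JMJD3, had 3.45 FPKM at Day 0 and between 158 and 282 FPKM with Dox, and the mutant line had 2.40 FPKM untreated and 454 FPKM treated, counting vector and endogenous transcripts together. Of 8 hESC markers, 8 were lower at Day 4 than at Day 0 and 2 of them, SOX2 and DNMT3B, were downregulated, and their summed level ranged from 1833 to 2535 FPKM in the JMJD3c-hESCs. Of 8 mesendoderm markers, 8 were upregulated, with a summed level of 5.49 FPKM at Day 0 and 309.8 FPKM at Day 4. Of 5 neuroectoderm markers, 1, PAX6, was upregulated at Day 4, from 2.22 to 5.91 FPKM with overlapping intervals, after 9.62 FPKM at Day 1, and the summed level of the list ranged from 2.22 to 13.5 FPKM in these cells. In the mutant line 8 of 8 hESC markers were also lower, 0 of them past the 2-fold cutoff and 6 with intervals apart. Of 5 fibroblast markers, COL3A1, LUM and DCN were at or near 0, while COL1A1 lay between 4.18 and 11.3 FPKM and COL1A2 between 12.5 and 28.4 FPKM. The summed level of this list was 30.0 to 36.5 FPKM in the JMJD3c-hESCs, and 16.7 and 20.1 FPKM in the mutant line, and COL1A2 at Day 4 was 1.86 times the untreated mutant line with intervals apart. The part of these shifts in the network values was not tested, and in such bulk RNA fewer cells of a type and less RNA per cell cannot be told apart.

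At Day 4 of Dox, MYC was downregulated (7.56% of all tested genes) and MXD4, a member of the MXD repressor family, was upregulated (5.87% of all). MYCN at Day 4 was 0.509 of its Day 0 level, just inside the 2-fold cutoff, with intervals apart (7.00% of all in the lower direction). The other 7 genes had intervals that overlapped those of Day 0. With the inactive mutant, 0 of the 10 genes passed a cutoff, beside 1.25% of all tested genes upregulated and 1.53% downregulated. The intervals of all 10 overlapped those of the untreated mutant line. Among all tested genes, 1.47% had intervals apart in the higher and 1.68% in the lower direction.

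**Figure D1:**
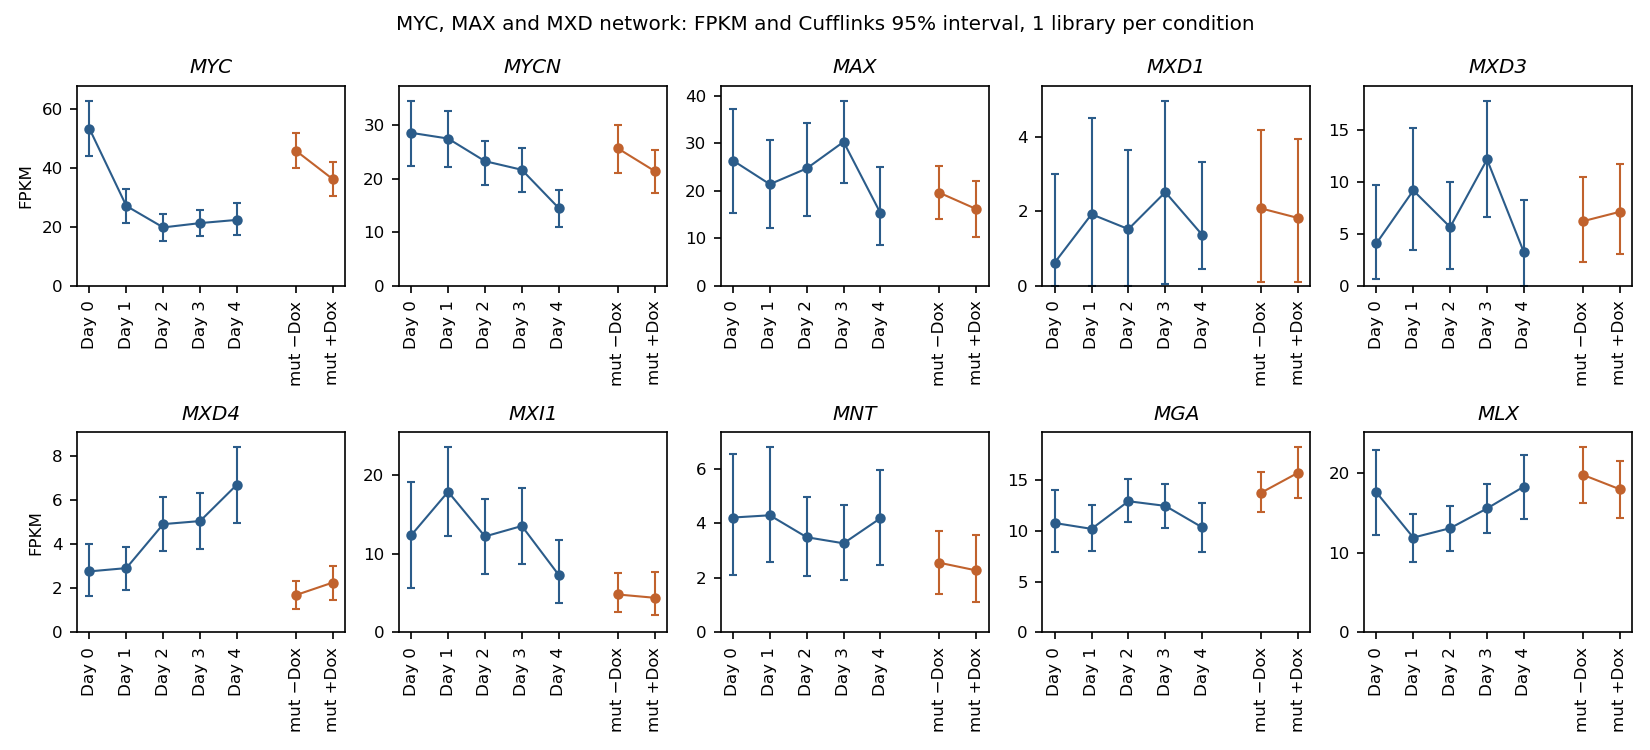
FPKM of the 10 network genes in each of the 7 libraries, with bars for the 95% interval of each estimate. MYC lies at 53.3 FPKM at Day 0 and between 19.8 and 27.1 FPKM at Days 1 to 4, and MXD4 lies at 2.77 FPKM at Day 0 and 6.71 FPKM at Day 4.

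MYC (ENSG00000136997, chromosome 8, 128747680 to 128753674 on hg19) encodes the proto-oncogene that gives the network its name. In the JMJD3c-hESCs its level was 53.3 FPKM at Day 0 and 27.1, 19.8, 21.3 and 22.4 FPKM on the 4 days that followed. In the mutant line it was 45.8 FPKM without Dox and 36.2 with Dox. The 4 libraries with active JMJD3c were the lowest of the 7, and the fall was already present at Day 1. The Day 4 interval (17.3 to 28.0 FPKM) lay below those of Day 0 (43.9 to 62.8), the untreated mutant line (39.9 to 51.8) and the treated mutant line (30.5 to 41.9). The ratio of Day 4 to Day 0 was 0.420, with bounds of 0.276 and 0.638 when the extremes of the 2 intervals are divided. The mutant line gave a ratio of 0.790 (bounds 0.588 to 1.05), with overlapping intervals. About 368 reads at Day 0 and 212 at Day 4 stood behind these values.

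MYCN (ENSG00000134323, chromosome 2, 16080686 to 16087129), the paralog of MYC that is known from neuroblastoma and is also active in pluripotent cells, had a different course. Its levels were 28.6 FPKM at Day 0 and 27.5, 23.3, 21.7 and 14.5 FPKM at Days 1 to 4, against 25.7 and 21.4 FPKM in the mutant line without and with Dox. The lowest value of the 7 was that of Day 4, and the values of Days 2 and 3 lay between those of the mutant line. The ratio of Day 4 to Day 0 was 0.509 (bounds 0.320 to 0.801), above the cutoff of 0.5, with intervals apart (11.04 to 18.0 against 22.5 to 34.5 FPKM). The ratio in the mutant line was 0.835 (bounds 0.574 to 1.20). The ratio of MYC to MYCN was 1.87 at Day 0, then 0.986, 0.852 and 0.983 on Days 1 to 3, and 1.54 at Day 4. Between Days 1 and 3 the levels of the 2 genes lay side by side, with overlapping intervals.

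MXD4 (ENSG00000123933, chromosome 4, 2249159 to 2264021) encodes an MXD protein linked to the exit of cells from proliferation. It lay at 2.77 FPKM at Day 0 and 2.92, 4.91, 5.05 and 6.71 FPKM on the 4 days that followed, and at 1.70 and 2.27 FPKM in the mutant line without and with Dox. The 3 highest values were those of Days 2 to 4, and the interval at Day 4 (4.96 to 8.40 FPKM) lay above that of Day 0 (1.66 to 4.02 FPKM). The ratio of Day 4 to Day 0 was 2.42 (bounds 1.23 to 5.05), and the mutant line gave 1.33 (bounds 0.621 to 2.79). Day 4 was 3.95 times the untreated mutant line and 2.96 times the treated one, upregulated with intervals apart in each case. About 39.5 reads at Day 0 and 131 at Day 4 stood behind the values, and no other entry overlapped the gene.

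MXD3 (ENSG00000213347, chromosome 5, 176732501 to 176739758), an MXD protein that in many tissues is expressed in cycling cells, had no steady course. Its levels were 4.08 FPKM at Day 0 and 9.17, 5.65, 12.1 and 3.23 FPKM at Days 1 to 4, and 6.22 and 7.12 FPKM in the mutant line. It was upregulated at Day 1 (ratio 2.25) and at Day 3 (ratio 2.97) and not at Day 2 or Day 4. Its intervals were wide, from 0.711 to 9.72 FPKM at Day 0 and from 6.62 to 17.8 FPKM at Day 3, and overlapped in each of these comparisons. The locus overlaps the entry for PRELID1, so the counting may have divided reads between the genes.

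MXI1 (ENSG00000119950, chromosome 10, 111967363 to 112047123), the most abundant MXD gene in the JMJD3c-hESCs, lay at 12.3 FPKM at Day 0 and 17.8, 12.2, 13.5 and 7.29 FPKM on the 4 days that followed. The mutant line had 4.82 FPKM without Dox and 4.40 with Dox, below every library of the JMJD3c-hESCs. The ratio of Day 4 to Day 0 was 0.592, with overlapping intervals. The untreated lines themselves differed more, with a ratio of 0.391 of the mutant line to Day 0, also with overlapping intervals. Against the untreated mutant line, MXI1 at Day 4 was thus higher, at a ratio of 1.51.

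MXD1 (ENSG00000059728, chromosome 2, 70124820 to 70170077), the founding MXD gene, known for its induction in differentiating myeloid and epithelial cells, was the lowest of the 10 in 6 of the 7 libraries. It lay between 0.626 FPKM at Day 0 and 2.52 FPKM at Day 3, below the cutoff of 4 FPKM in every library. Its ratio of 2.19 at Day 4 rested on about 11.9 reads at Day 0 and 35.9 at Day 4, and the Day 0 interval began at 0. At Day 0, 3 reads of this gene corresponded to 0.157 FPKM, a floor that covers counting error only. The entries for SNRNP27 and AC019206.1 overlap the locus.

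MNT (ENSG00000070444, chromosome 17, 2287354 to 2304412), a broadly expressed repressor that opposes MYC, had almost the same level at Day 0 (4.22 FPKM) and Day 4 (4.19 FPKM), with a ratio of 0.994. It lay between 2.28 FPKM in the treated mutant line and 4.30 FPKM at Day 1.

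MAX (ENSG00000125952, chromosome 14, 65472892 to 65569413), the shared partner, lay at 26.4 FPKM at Day 0 and 21.4, 24.7, 30.3 and 15.3 FPKM at Days 1 to 4. The mutant line had 19.6 and 16.2 FPKM, close to Day 4. The ratio at Day 4 was 0.581, but its bounds ran from 0.230 to 1.63, and the ratio in the mutant line was 0.825. Entries for FNTB and CHURC1-FNTB overlap the locus. MGA (ENSG00000174197, chromosome 15, 41913734 to 42062141) lay between 10.2 and 15.7 FPKM in all libraries, with a ratio of 0.960 at Day 4 and 1.14 in the mutant line. It was lower at Day 4 than in the treated mutant line, at a ratio of 0.658 (bounds 0.434 to 0.966), with intervals apart. MLX (ENSG00000108788, chromosome 17, 40719086 to 40725257), whose locus overlaps the entry for PSMC3IP, lay between 11.9 FPKM at Day 1 and 19.7 FPKM in the untreated mutant line, with a ratio of 1.04 at Day 4.

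Ordered by FPKM, which is scaled to transcript length, MYC came first in 4 of the 7 libraries. MYCN came first at Day 1 and MAX at Days 2 and 3, each with an interval that overlapped that of MYC. At Day 0 the order was MYC, MYCN, MAX, MLX, MXI1, MGA, MNT, MXD3, MXD4 and MXD1, and of the 9 pairs of neighbours only MYC and MYCN and MGA and MNT had intervals apart. At Day 4 the order was MYC, MLX, MAX, MYCN, MGA, MXI1, MXD4, MNT, MXD3 and MXD1, with 0 neighbour pairs apart. In this order MYCN came after MLX and MAX, and MXD4, next to last at Day 0, stood before MNT and MXD3. In the untreated mutant line the order began with MYC, MYCN, MLX and MAX and ended with MXD4, with 2 neighbour pairs apart.

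The comparison of Day 4 with Day 0 addresses which transcripts differ after JMJD3c induction. Of the 10 genes, 9 were above 4 FPKM in either library. The 1 upregulated gene was MXD4 and the 1 downregulated gene was MYC, while 5.87% of all 10247 tested genes were upregulated and 7.56% downregulated. Intervals were apart in the higher direction for MXD4 (5.15% of all tested genes) and in the lower direction for MYC and MYCN (7.00% of all). Without regard to a cutoff, 7 of the 10 genes were lower and 3 were higher, beside 55.2% and 44.8% of all tested genes. Their median log2 fold change, with a pseudocount of 1 added to each FPKM, was -0.16, against -0.06 for all tested genes. With counts this small, the shares do not set the network apart from other genes, and the values of the individual genes carry the description.

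At Day 1, 1 gene was upregulated (MXD3, with 3.48% of all tested genes) and 0 were downregulated (3.27% of all), since the MYC ratio of 0.509 lay just above the cutoff. At Day 2, 0 genes were upregulated (3.90% of all) and 1 was downregulated (MYC, ratio 0.372, with 4.24% of all). At Day 3, 1 was upregulated (MXD3, with 4.73% of all) and 1 was downregulated (MYC, ratio 0.400, with 4.48% of all). MYC lay below Day 0 with intervals apart on each of these 3 days, beside 2.54%, 4.49% and 4.34% of all tested genes. No network gene was higher with intervals apart before Day 4, beside 1.45%, 2.73% and 4.45% of all. These comparisons and that of Day 4 share the Day 0 library.

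**Figure D2:**
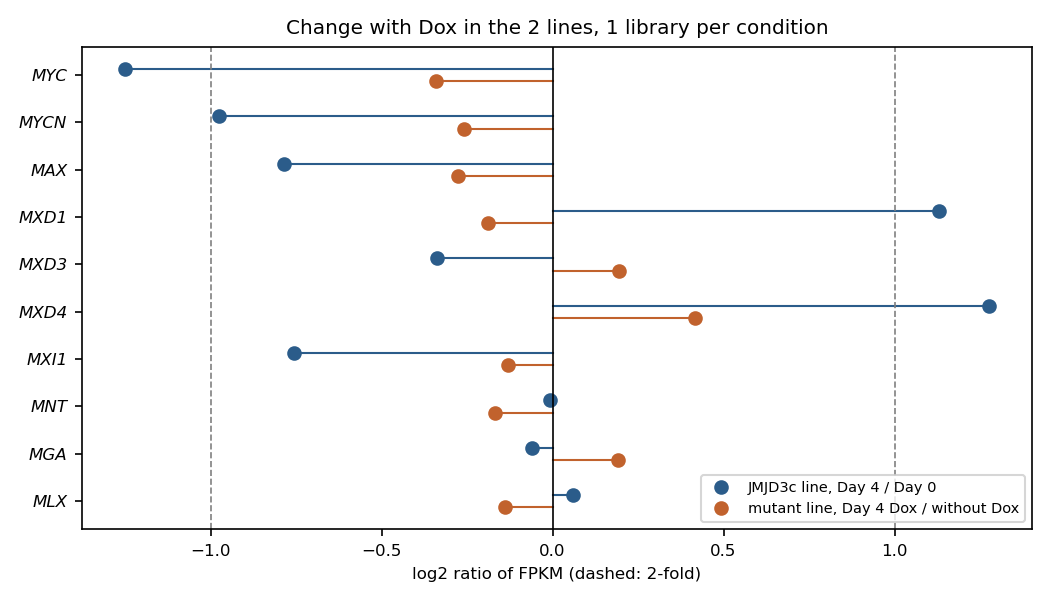
Log2 ratio of FPKM, without a pseudocount, of each of the 10 network genes at Day 4 against Day 0 in the JMJD3c-hESCs and at Day 4 against no Dox in the mutant line. MYC and MYCN have the lowest values in the JMJD3c-hESCs and MXD4 the highest.

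The mutant line, in which the induced protein lacks catalytic activity, addresses what Dox and the protein itself do without demethylation. There, 0 of the 10 genes were upregulated (1.25% of all tested genes) and 0 downregulated (1.53% of all), with 0 intervals apart in the higher direction (1.47% of all) and 0 in the lower (1.68% of all). The ratios lay between 0.790 for MYC and 1.33 for MXD4, so for these 2 genes the ratios lay on the same side of 1 as in the JMJD3c-hESCs and nearer to it. Whether the change differs between the lines was not tested, because no condition had a replicate.

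The Day 4 library was also set against the mutant libraries. Against the untreated mutant line, MXD4 was upregulated (7.05% of all tested genes) at a ratio of 3.95 with intervals apart (8.65% of all in the higher direction), and MYC was downregulated (3.90% of all) at a ratio of 0.489. MYC and MYCN had intervals apart in the lower direction (9.96% of all), MYCN at a ratio of 0.566. Against the treated mutant line, MXD4 was upregulated (6.56% of all) and MXD3 was downregulated at a ratio of 0.453 (3.00% of all) with overlapping intervals. Here MXD4 was higher with intervals apart (7.58% of all), and MYC, at a ratio of 0.619, and MGA were lower with intervals apart (8.67% of all). The untreated lines differed in MXI1 alone past the cutoffs, lower in the mutant line (7.01% of all), and 0 network genes were higher (2.78% of all). MYC, MYCN and MXD4 had overlapping intervals between the untreated lines.

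Sums within a library show the balance between activators and repressors at the RNA level without a comparison of depth. The summed FPKM of MYC and MYCN was 81.9 at Day 0 and 54.6, 43.1, 43.0 and 36.9 on the 4 days that followed, and 71.5 and 57.6 in the mutant line without and with Dox. The summed FPKM of MXD1, MXD3, MXD4, MXI1 and MNT was 24.0 at Day 0 and 36.1, 27.8, 36.5 and 22.8 at Days 1 to 4, and 17.4 and 17.9 in the mutant line. The first sum fell to 0.451 of its Day 0 value, whereas the second at Day 4 was 0.949 of its Day 0 value.

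The ratio of the repressor sum to the activator sum was 0.293 at Day 0 and 0.662, 0.644, 0.849 and 0.617 on the 4 days that followed. In the mutant line it was 0.243 without Dox and 0.310 with Dox. All 4 Dox-treated libraries of the JMJD3c-hESCs lay above the other 3. The log2 ratio at Day 4 was 1.07 higher than at Day 0 (SE 0.37, from the Cufflinks intervals). In the mutant line it was 0.35 higher with Dox than without (SE 0.34). These SEs hold no variation between cultures, and whether the change differs between the lines was not tested. The activator sum remained above the repressor sum in all 7 libraries.

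The makeup of the repressor sum differed between Day 0 and Day 4 although its size was similar. MXD4 made up 11.5% of it at Day 0 and 29.4% at Day 4, against 9.77% and 12.7% in the mutant line without and with Dox. The ratio of MXD4 to MYC was 0.0520 at Day 0 and 0.299 at Day 4, and 0.0370 and 0.0626 in the mutant line.

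**Figure D3:**
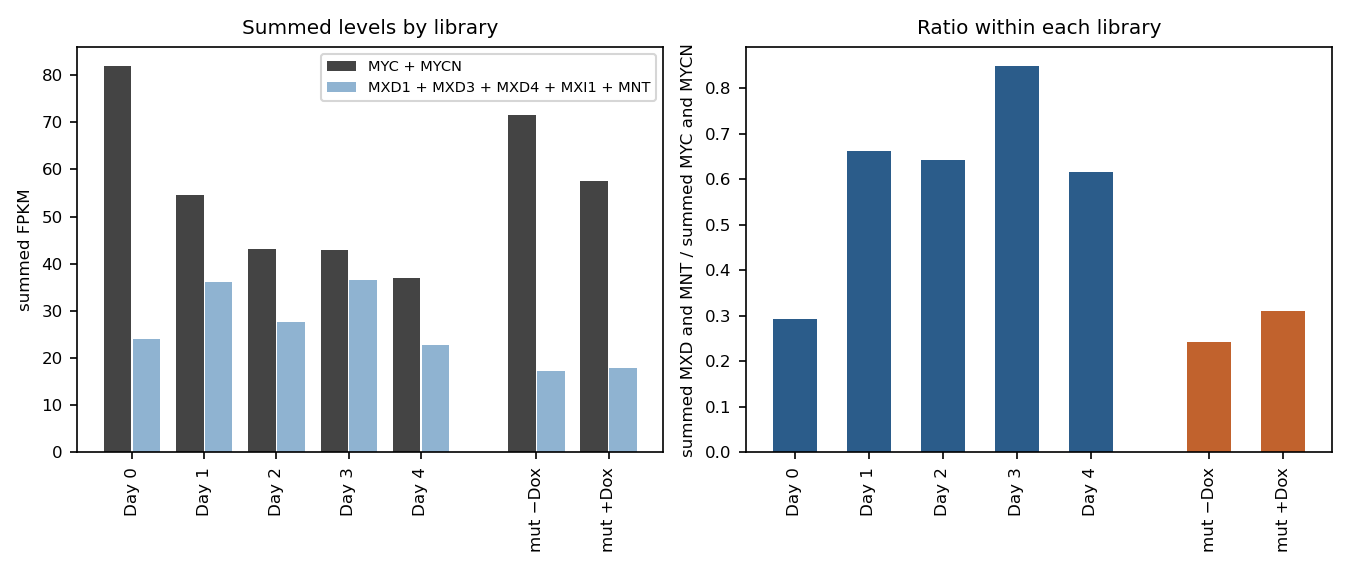
Summed FPKM of MYC and MYCN and of MXD1, MXD3, MXD4, MXI1 and MNT in each of the 7 libraries, and the ratio of the second sum to the first. The ratio is 0.293 at Day 0 and between 0.617 and 0.849 at Days 1 to 4, and 0.243 and 0.310 in the mutant line.

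The E-box CACGTG, the site that MAX heterodimers prefer, was searched in the promoters of the network genes themselves, because members of the family can bind each other's genes. RefSeq windows of 300 bases on GRCh38.p14, from 250 bases before to 50 after a transcription start, were held for 9 of the 10 genes, 14 windows in all, and not for MYC. The motif reads the same on both strands. It occurred in 3 windows, those of MXD4, MNT and MLX, and in 7.26% of all 35116 windows. The following 60-base stretches, written 5′ to 3′ on the strand of the gene, hold the E-box in capitals.
MXD4, chr4:2262300-2262359, minus strand: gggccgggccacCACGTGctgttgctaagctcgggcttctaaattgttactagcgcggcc
MNT, chr17:2401221-2401280, minus strand: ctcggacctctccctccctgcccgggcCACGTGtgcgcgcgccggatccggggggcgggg
MLX, chr17:42567023-42567082, plus strand: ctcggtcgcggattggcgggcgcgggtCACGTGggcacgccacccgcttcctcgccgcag
The motif began 238 bases before the start in MXD4, 193 in MNT and 50 in MLX. Of these 3 genes, MXD4 was upregulated at Day 4, while MNT and MLX had ratios of 0.994 and 1.04. A match describes these letters in these windows and says nothing on binding.

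The known target genes of MYC were described from a list of 41 genes, all found in the files. Relative to Day 0, 30 were lower and 11 higher at Day 4, and the median log2 fold change was -0.20 against -0.06 for all tested genes. Past the cutoffs, 2 were downregulated (4.88% of the list, beside 7.56% of all tested genes) and 0 were upregulated (beside 5.87% of all). Intervals were apart in the lower direction for 13 (31.7% of the list, beside 7.00% of all) and in the higher direction for 1 (beside 5.15% of all). The list lay at a median of 78.9 FPKM at Day 0 against 15.3 FPKM for all tested genes, and intervals are narrower at higher levels.

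The 2 downregulated targets were LDHA and TERT. LDHA, which makes lactate at the end of glycolysis, went from 733 FPKM at Day 0 to 586, 291, 242 and 238 FPKM at Days 1 to 4, a ratio of 0.325 at Day 4. It was also lower with Dox in the mutant line, 341 against 524 FPKM, with intervals apart. TERT, the catalytic subunit of telomerase, went from 5.89 FPKM to 4.19, 3.47, 2.74 and 2.04 FPKM, a ratio of 0.346 with intervals apart. The mutant line held 3.17 and 3.12 FPKM of TERT, between the values of Days 2 and 3.

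Among the most abundant targets, PTMA, which encodes prothymosin alpha, lay at 1983 FPKM before Dox and 1347 FPKM at Day 4. It is 1 of the 13 with intervals apart, but its Day 0 value lies outside its own interval of 1590 to 1778 FPKM. EIF4A1, a translation initiation helicase, lay at 1177 and 1224 FPKM, with overlapping intervals. Both have many processed pseudogenes, with which reads may be shared. The 1 target with intervals apart in the higher direction was ODC1, the first enzyme of polyamine synthesis, named after its values were seen, which lay at 148 FPKM at Day 0, 248 at Day 4, and 209 and 279 in the mutant line without and with Dox. In the mutant line, 22 targets were lower and 19 higher, with a median of -0.02 against 0.0039 for all tested genes. There were 0 calls, beside 1.25% of all upregulated and 1.53% downregulated. Intervals were apart in the lower direction for 3 (7.5% of the 40 tested, beside 1.68% of all). In the higher direction they were apart for 2 (beside 1.47% of all). Of the 3, NPM1, named after its values were seen, had a treated value outside its own interval. Against the untreated mutant line, 29 targets were lower and 12 higher at Day 4. The median was -0.28, against -0.02 for all tested genes. In this comparison 4 were downregulated (10% of the 40 targets tested, beside 3.90% of all). These were LDHA, POLR1B and POLR3G of RNA polymerases I and III, and the transferrin receptor TFRC. The last 3, named after their values were seen, had ratios of 0.760, 0.602 and 0.592 to Day 0, with overlapping intervals and no call. They lay at 35.9, 90.3 and 46.9 FPKM in the untreated mutant line and 22.4, 58.0 and 26.7 FPKM at Day 0. With Dox in the mutant line, POLR3G was also lower, at a ratio of 0.716 with intervals apart. Intervals were apart in the lower direction for 17 (42.5% of the 40 tested, beside 9.96% of all) and in the higher direction for 4 (beside 8.65% of all). HSPD1 of the 17 and HSPE1 of the 4, named after their values were seen, had values outside their own intervals. Of the 17, only NCL, NPM1, NOLC1, WDR12, IMPDH2, PPAT, GART and LDHA were also among the 13 against Day 0. EIF2S1 and ATIC, of the 17, lay at 40.1 and 141 FPKM at Day 0 and higher, at 58.6 and 167, at Day 4. The untreated mutant line held 92.1 and 244 FPKM of them. FBL, of the 13, lay at 758 FPKM at Day 0, 478 at Day 4 and 443 in the untreated mutant line. These genes were also named after their values were seen.

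**Figure D4:**
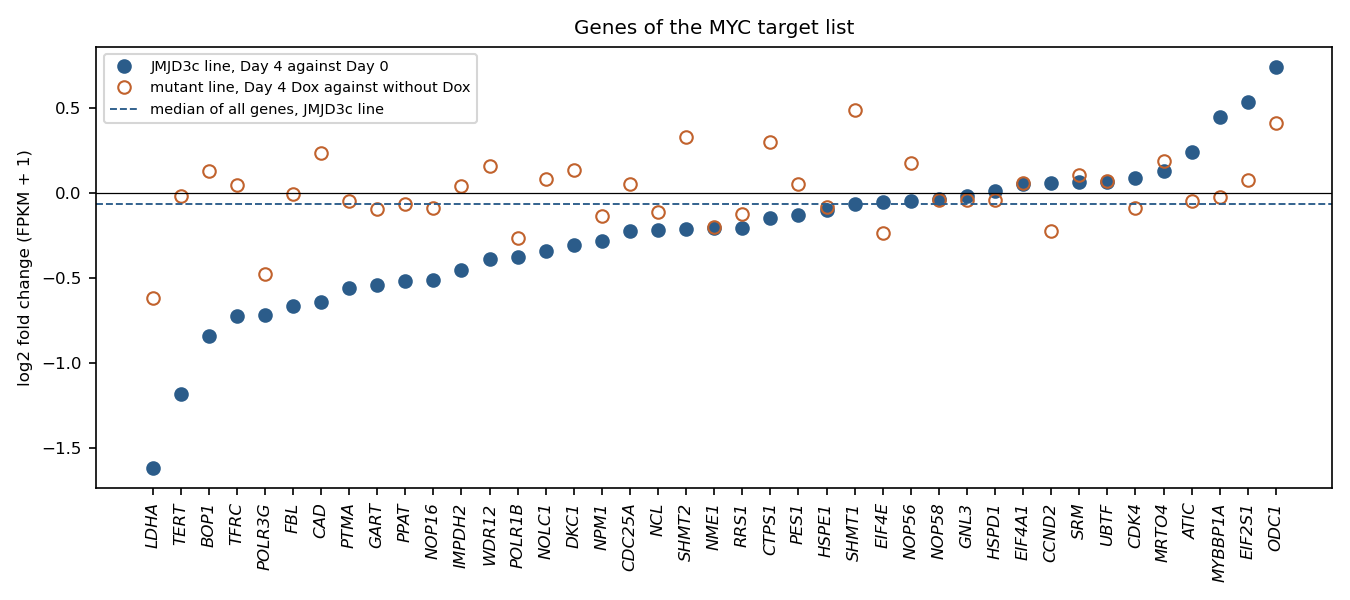
Log2 fold changes (pseudocount 1) of the 41 MYC target genes at Day 4 against Day 0 in the JMJD3c-hESCs and at Day 4 against no Dox in the mutant line. The medians are -0.20 and -0.02, and LDHA and TERT have the lowest ratios in the JMJD3c-hESCs.

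MLX has its own partners. MLXIP, also called MondoA, went from 17.3 FPKM at Day 0 to 13.9, 10.9, 8.42 and 8.75 FPKM at Days 1 to 4, a ratio of 0.507 at Day 4 with overlapping intervals, whereas the mutant line held 9.45 and 10.99 FPKM. The untreated mutant line was thus near the Day 3 and Day 4 values. MLXIPL, also called ChREBP, lay between 0.559 and 2.09 FPKM, below the cutoff throughout. Their shared target TXNIP, an inhibitor of glucose uptake, lay at 47.3 FPKM at Day 0 and 23.9 FPKM at Day 4 (ratio 0.506, intervals apart), but at 22.8 and 19.1 FPKM in the mutant line. The other target, ARRDC4, lay at 8.35 and 7.32 FPKM at Day 0 and Day 4. MYCL, the third MYC paralog, lay at 9.66 FPKM at Day 0, 5.91 at Day 4, and 7.35 and 6.87 in the mutant line, with overlapping intervals.

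Of 14 cofactors that the network proteins recruit, 11 were lower and 3 higher at Day 4, 0 passed a cutoff (beside 5.87% and 7.56% of all tested genes), and the median was -0.10, against -0.06 for all. In the lower direction 2 had intervals apart (14.3% of the list, beside 7.00% of all), KAT2A at a ratio of 0.627 and RUVBL2 at 0.727, named after their values were seen. Against the untreated mutant line these ratios were 0.999 and 1.06, with overlapping intervals. HDAC2, a deacetylase of the SIN3 complex, lay at 223 FPKM at Day 0 and 178 at Day 4, and RUVBL1, a helicase that binds MYC, at 111 and 88.4 FPKM. Of 9 other genes of the MGA complex, 6 were higher and 3 lower, 0 passed a cutoff, and the median was 0.26. Against the untreated mutant line their median was 0.08. There RING1, named after its values were seen, was upregulated (12.5% of the 8 tested, beside 7.05% of all). Its ratio was 2.41 with intervals apart, but 0.876 to Day 0 with overlapping intervals. CBX3 and TFDP1, the most abundant of the 9, lay at 119 and 134 FPKM and at 47.5 and 46.9 FPKM at Day 0 and Day 4. YAF2, named after its values were seen, was below 4 FPKM in both libraries. It was listed at 0 at Day 0, where 3 reads would give 0.173 FPKM, and lay at 3.74 FPKM at Day 4 (interval 0.449 to 7.54), which overlapped the 0.582 FPKM of the untreated mutant line (0 to 3.25). Of the 10 germline genes that this complex silences in other cells, 1, TDRKH, was above 4 FPKM, at 8.74 and 7.08 FPKM. Of the list, 0 were upregulated (beside 5.87% of all tested genes).

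Of 13 genes for the stability of the MYC protein, 7 were higher and 6 lower, and 1 was downregulated (7.69% of the list, a share near the 7.56% of all tested genes). This was USP28, a deubiquitinase that stabilizes MYC, which lay at 53.3 FPKM at Day 0 and 44.9, 37.4, 37.9 and 26.0 FPKM at Days 1 to 4, a ratio of 0.488 with intervals apart. The mutant line held 50.3 FPKM without Dox and 39.9 with Dox. The lowest USP28 value was that of Day 4, as for MYCN, MAX and MXD3 of the network. PLK1, a mitotic kinase, lay at 97.4 and 77.6 FPKM at Day 0 and Day 4.

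The genes whose pattern over the 7 libraries was most like that of MYC, by Pearson's r of log2(FPKM + 1) among 9691 other genes with a mean above 4 FPKM, were EMG1 (r = 0.971), NOM1 (0.968), PPM1D (0.967), LMO4 (0.967) and NAT10 (0.965). The 7 points are single libraries of related cells, and 16 genes reached an r above 0.95. EMG1, a methyltransferase for ribosomal RNA, went from 68.3 FPKM at Day 0 to 42.3 at Day 4. NAT10, an RNA acetyltransferase of the nucleolus, went from 49.5 to 29.1 FPKM, but differed little in the mutant line, at 41.5 and 43.1 FPKM without and with Dox. No gene of this group fell as far as MYC.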

How the data were processed

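Poly(A) RNA of 7 conditions, 1 library each, was sequenced by the authors as single-end reads of 150 bases on a MiSeq. The submitters' processing notes name CASAVA 1.4, TopHat2 2.0.13, Cufflinks 2.1.1 and hg19. The gene annotation and the strand setting are not given in the sources used here. The authors deposited FPKM values per gene with the bounds of their 95% intervals, and these were used without rescaling. Since FPKM values state no depth, it was estimated: at Day 0, low values of 14 of 18 genes with 1 exon lay within 0.05 of whole reads, and the other libraries were scaled from the steps of their low values. Transcript lengths came from GENCODE release 44 on GRCh37.

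Ratios, calls and intervals were compared between pairs of libraries with Python 3.11.15, numpy 2.4.6, pandas 2.3.3 and matplotlib 3.10.9. The calls were tested on simulated libraries with large changes in genes well above the FPKM cutoff. Genes near the cutoff, intervals, sums, list medians and depth were not tested in this way. No test across genes was made. Gene lists are described by counts and medians beside those of all tested genes. The members and lists were chosen with earlier results of these data known. The named genes are the 10 members, up to 5 genes per list each way past the cutoffs at Day 4 and up to 3 in the mutant line, the 2 of each list with the highest mean FPKM, and the 5 most like MYC. The values of 1 gene that this rule names are not reported here. Alternatives changed the FPKM and fold cutoffs, the pseudocount, the scaling, the use of intervals, the treated library, the untreated reference and the handling of entries that share a name.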

Additional observations from a re-analysis of the deposited data

Results flagged for a closer look

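For 7 of the 27 genes named from the network and its lists, the log2 fold change (pseudocount 1) had opposite signs in the JMJD3c-hESCs and in the mutant line. The difference was not tested, since each condition had 1 library, and for each of these genes the intervals overlapped within both lines. Given as the JMJD3c value minus the mutant value, the differences for network genes were 0.67 for MXD1 (0.54 against -0.13), -0.44 for MXD3 (-0.27 against 0.17), -0.23 for MGA (-0.05 against 0.18) and 0.19 for MLX (0.06 against -0.13). For the MLX partner MLXIP the difference was -1.10 (-0.91 against 0.20). For the MGA complex it was 0.30 for CBX3 (0.16 against -0.14) and -0.034 for TFDP1 (-0.02 against 0.01).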

How the results depend on the processing

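Of 48 recomputed summary values, 5 moved by over 1.5 times (counts) or by more than the standard error from the Cufflinks intervals, or changed direction. Of 70 recomputed values of single network genes, 13 changed sign, in 7 genes, none of them called at Day 4, and MYC, MYCN and MXD4 kept theirs. Both totals include the summing of entries that share a name. It could not change these values, since each network gene had 1 entry. With more than 1 FPKM as the cutoff, 2 network genes were upregulated at Day 4, MXD1 being added, and with more than 10 FPKM 0 were. With a fold cutoff of 1.5, 4 were downregulated, MYC, MYCN, MAX and MXI1. With Day 3 in place of Day 4, the members' median log2 fold change was 0.16 in place of -0.16, and the log2 ratio of repressors to activators rose by 1.53 in place of 1.07. Over the alternatives, the log2 fold change lay between -1.28 and -1.0004 for MYC, between -0.97 and -0.38 for MYCN and between 0.66 and 1.51 for MXD4, and the median lay between -0.36 and 0.16 for the 10 genes and between -0.28 and -0.08 for the MYC targets. MAX, MXD3, MXI1, MGA and MLX changed sign with Day 3, MXD1, MXI1, MNT and MLX with the untreated mutant line as the reference, and MNT and MGA under both other scalings. Those scalings moved the median of all tested genes at Day 4 to -0.0047 and 0.059. With 1 library per condition, none could be left out. No paired analysis was possible because the conditions had 1 library each and no replicate numbers. Differences of MXD1, MXD3, MAX, MXI1 and MNT within their wide intervals cannot be told from no difference, and no detection limit was computed. The widths did not follow the estimated number of reads alone, an estimate that assumes the longest transcript of each gene. At Day 0, MAX had about 276 reads and an interval reaching 41.5% of its value to each side on average. MYCN had about 151 reads and 21.2%.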
